A study of Homo sapiens with 6 samples.

Results

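The 50 genes described here drive human cells from the end of DNA replication through mitosis: cyclins and the kinase they activate, mitotic kinases, spindle checkpoint proteins, the anaphase machinery, kinesins, kinetochore and spindle proteins, and proteins that shape chromosomes. They were chosen by symbol from the known roles of G2/M and mitosis genes, and each symbol matched 1 Ensembl identifier among the 63086 genes of the count table. All 50 passed the expression filter, so none was left out of the fold changes below. The study measured messenger RNA in HEK293T, an established human embryonic kidney line that carries the SV40 large T antigen, with and without queuine, a base that cells build as queuosine into 4 tRNAs, those of tyrosine, histidine, asparagine and aspartate. The 3 libraries called 100Q came from depleted cells that were then given queuine for 24 hours, and the 3 libraries called 0Q came from depleted cells kept without it. Both groups grew in DMEM with 10% dialyzed serum and antibiotics. The labels disagree on the dose, with 100 nM given per sample and 1 µM given for the treatment. Triplicates are named, but not whether they were grown apart, so the p-values refer to a spread between libraries that may be technical.

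Entry into mitosis depends on CDK1 bound to cyclin A or cyclin B, and on kinases of the Polo and Aurora families that act beside it. Exit depends on the anaphase-promoting complex (APC/C), a ubiquitin ligase that marks securin and cyclins for destruction. Most of these genes are transcribed in waves that peak in G2 and M. The promoter elements involved are CCAAT boxes, which bind NF-Y, and the cell cycle homology region (CHR). The CHR binds MuvB, which acts together with B-MYB or, in resting cells, as part of the DREAM repressor. Queuosine sits at the first anticodon base of its 4 tRNAs and meets the third base of the codon, which is C or U.

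The promoters of 7 members are shown because they hold these elements within the window searched, and because 6 of the 7 belong to genes whose level by library is given below, with NUSAP1 and TOP2A among them. Sequences are RefSeq promoters of build GRCh38.p14, printed on the strand of the gene. Capitals mark the CCAAT box letters (CCAAT) and the common forms of the CHR (TTTGAA or TTTAAA) on either strand, and overlapping matches run together. Each stretch begins 10 bases before the first match and ends 10 bases after the last, within the window of 250 bases before to 50 after the start.
CDK1, chr10:60778160-60778215, plus strand: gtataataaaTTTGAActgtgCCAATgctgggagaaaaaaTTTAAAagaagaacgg
CCNB1, chr5:69167053-69167135, plus strand: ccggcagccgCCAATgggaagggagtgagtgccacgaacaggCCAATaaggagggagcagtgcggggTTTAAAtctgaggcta
PLK1, chr16:23678731-23678875, plus strand: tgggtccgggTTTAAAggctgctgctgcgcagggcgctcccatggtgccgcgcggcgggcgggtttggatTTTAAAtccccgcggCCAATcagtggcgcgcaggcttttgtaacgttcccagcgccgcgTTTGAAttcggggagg
CDC20, chr1:43358793-43358940, plus strand: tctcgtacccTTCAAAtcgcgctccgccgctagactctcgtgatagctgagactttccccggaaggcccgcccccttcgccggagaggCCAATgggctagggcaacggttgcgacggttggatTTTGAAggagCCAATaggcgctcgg
PTTG1, chr5:160421742-160421841, plus strand: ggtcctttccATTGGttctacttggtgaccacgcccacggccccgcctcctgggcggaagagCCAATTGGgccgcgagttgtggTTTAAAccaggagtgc
NUSAP1, chr15:41332631-41332909, plus strand: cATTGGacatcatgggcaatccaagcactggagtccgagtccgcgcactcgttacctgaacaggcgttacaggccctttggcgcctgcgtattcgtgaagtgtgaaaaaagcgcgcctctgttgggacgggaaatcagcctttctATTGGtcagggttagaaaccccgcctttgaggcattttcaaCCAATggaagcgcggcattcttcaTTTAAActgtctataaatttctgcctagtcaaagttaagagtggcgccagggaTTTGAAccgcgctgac
TOP2A, chr17:40417935-40418146, minus strand: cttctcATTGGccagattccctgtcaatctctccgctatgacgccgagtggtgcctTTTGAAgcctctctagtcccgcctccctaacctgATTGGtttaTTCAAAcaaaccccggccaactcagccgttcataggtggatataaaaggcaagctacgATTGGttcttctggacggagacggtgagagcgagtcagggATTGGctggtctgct

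These motifs were common among the members. Of 43 members with a promoter in the table, 31 (72.1%) held TTTGAA on either strand, against 15.4% of the 27305 genes in it and 9.22% of 10908 genes that were also tested. TTTAAA was found in 13 members (30.2%), against 12.3% of all promoters and 7.34% of those tested. CCAAT was found in 33 members (76.7%), against 35.7% and 37%, and at least 2 matches in 22 members (51.2%), against 11.3% and 14.1%. CCAAT together with TTTGAA or TTTAAA was found in 29 members (67.4%), against 9.49% and 6.17%. In 17 members a CCAAT match began 20 to 40 bases upstream of a TTTGAA or TTTAAA match, among them CCNB1, CCNB2, CKS1B, CDC20, PTTG1, KIF11, NUSAP1 and PRC1. In the first start listed for CDC25B and CDC25C none of the motifs was found. For 8 members the table lists several starts, and counted over any of them 39 members held TTTGAA or TTTAAA and 35 held CCAAT. AURKA, BIRC5, BUB3, TTK, UBE2C, TPX2 and FOXM1 are named only. Among the 29 members with both kinds of motif 21 had a log2 fold change below 0 (median -0.036), and among the 8 with TTTGAA or TTTAAA alone all 8 did (median -0.093), as differences between 100Q and 0Q described below. Of 4 with CCAAT alone 3 were below 0 (median -0.040), and of 2 with none of the motifs at the first start listed 1 was (median 0.035). All these classes use the first start listed. CDK1, CDC25B, CDC25C, AURKB, PTTG1, ECT2, SMC2 and SMC4 have several starts, so their class may differ at another start. Over all genes tested 50.6% were below 0, and the share among tested genes with each motif was not computed. Of the members with TTTGAA or TTTAAA alone, BUB1B, NDC80 and SMC2 turned sign when single libraries were left out. GC content in these 8 ran from 35.4% (CENPE) to 43.1% (BUB1B), apart from KIF2C at 50.4%, beside a median of 48.1% in tested genes. With a correction for GC content and length, described below, their values ran from -0.18 (KIF2C) to -0.0099 (BUB1B). Without it these genes had -0.17 and -0.039. Motif and base composition were not separated. A link between motif and fold change was not tested. A match is a run of letters and was not tested as a binding site.

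**Figure D1:**
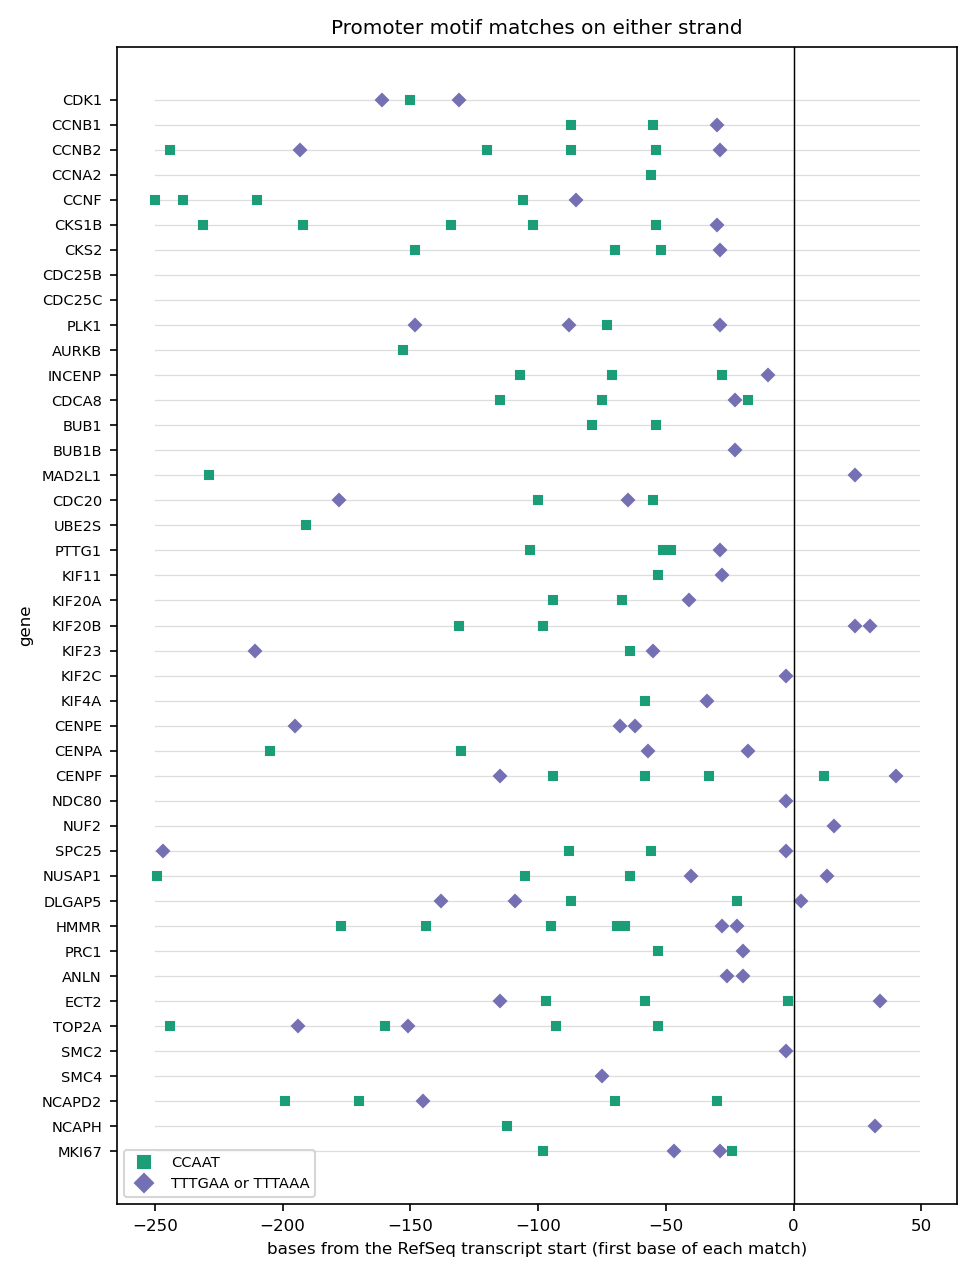
Position of each motif match in the promoters of 43 members, in bases from the RefSeq transcript start, with squares for CCAAT and diamonds for TTTGAA or TTTAAA on either strand. In 32 members a diamond lies between 70 bases before and 50 after the start.

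In order of replicate, the 100Q libraries summed to 5219707, 4023956 and 11398835 estimated counts, and the 0Q libraries to 7264638, 8035251 and 7604515. Levels are given in CPM, counts relative to the library total after TMM scaling, and fold changes are log2 values, 100Q minus 0Q, from edgeR. Genes that mark embryonic kidney and the neuronal traits of this line were present, with LHX1 averaging 6.04 CPM (100Q) and 4.02 CPM (0Q), and VIM 708 CPM (100Q) and 754 CPM (0Q). The leukocyte genes PTPRC and CD3E and the endothelial gene CDH5 had 0 counts in all 6 libraries. The fibroblast gene COL1A1 averaged 29.8 CPM (100Q) and 27.7 CPM (0Q). On the first principal component (32.6% of the variance) 100Q replicate 2, the shallowest library, stood apart from the other 5.

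Mitotic genes in 100Q lay close to their levels in 0Q. In these bulk samples, fewer cells in G2 or M and less of an RNA per cell cannot be told apart. No member passed the threshold of an adjusted p under 0.05 over the 14905 genes tested, where 2 genes (0.0134%) did (edgeR quasi-likelihood test, Benjamini-Hochberg). DESeq2 and limma-voom called 0 members as well, where they called 11 (0.0738%) and 1 (0.00671%) of all genes tested. At an unadjusted p under 0.05 there were 3 members, NUSAP1 and TOP2A with lower and UBE2C with higher levels in 100Q, which is 3 of 50 beside 4.73% of all genes (2.23% lower and 2.5% higher). DESeq2 and limma-voom gave the same 3 members, beside 3.77% and 5.4% of all genes. The smallest adjusted p of a member was 0.987 (edgeR quasi-likelihood, Benjamini-Hochberg). Small values on the side of 100Q below 0Q were more frequent than the opposite: 36 of 50 members had a log2 fold change below 0, beside 50.6% of all genes tested. Their median was -0.052, beside -0.0027 for all genes tested. Since the members and the role groups were chosen with earlier results known, these counts are a description.

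The members were well expressed, and the intervals of their differences were narrow. Their mean levels ran from 22.3 to 419 CPM in 100Q and from 22.8 to 470.2 CPM in 0Q, and the smallest estimated count of a member in a library was 98. The SE of the log2 fold change was 0.073 to 0.16, with a median of 0.092, beside 0.16 over all genes tested. The unadjusted 95% intervals of all 50 members lay between 0.737-fold and 1.36-fold. Each excluded a change of 1.5-fold in either direction, which held for 8673 of the 14905 genes tested. Like the p-values, these intervals rest on a spread between libraries that may be technical.

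**Figure D2:**
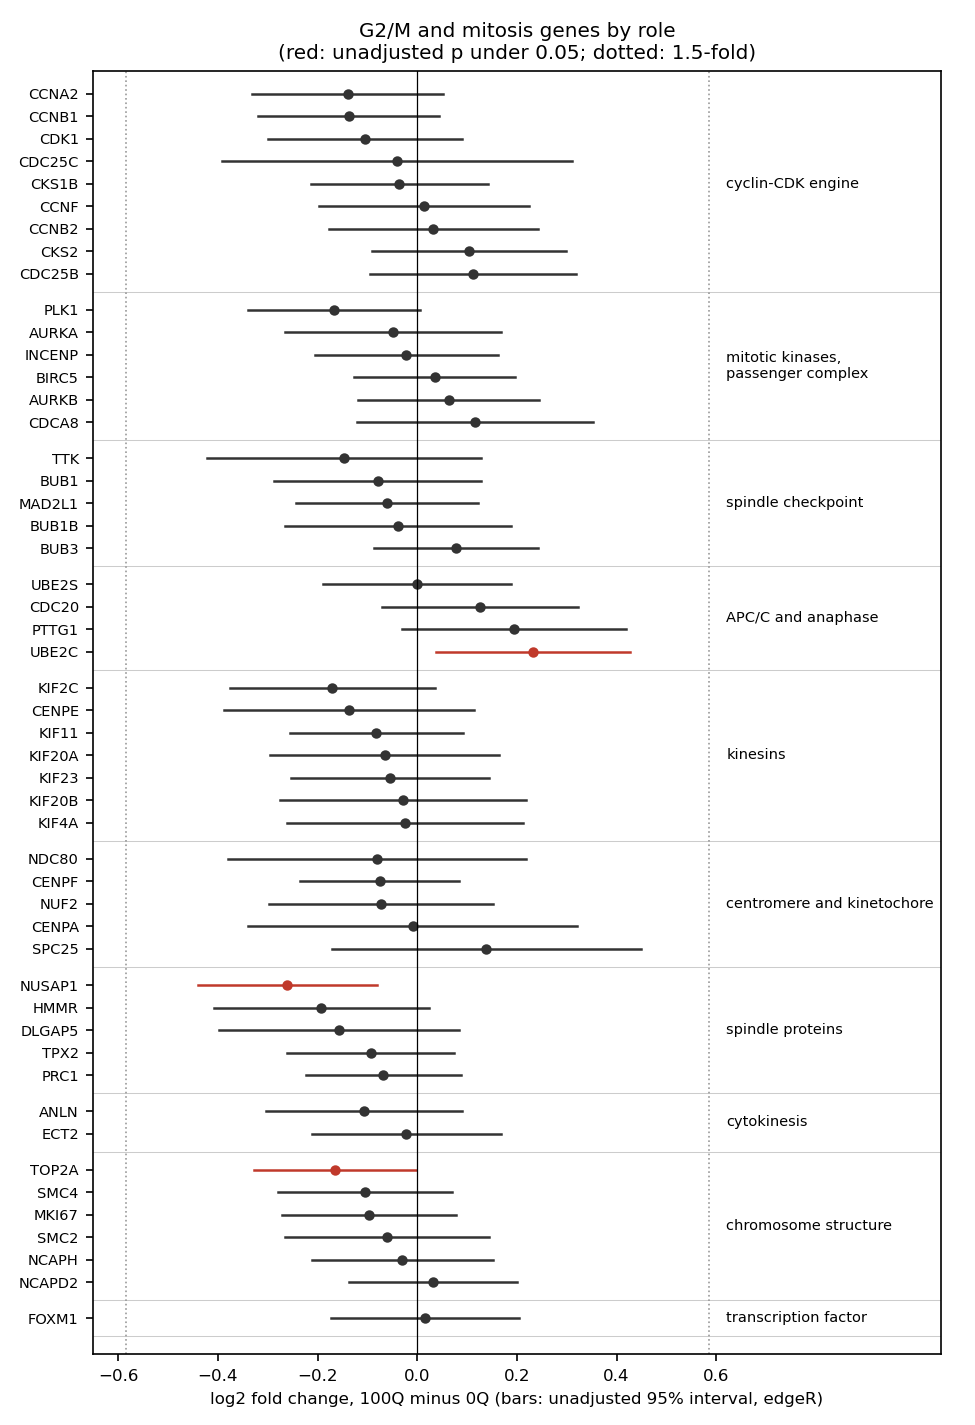
Log2 fold change (100Q minus 0Q) of the 50 members, ordered within role groups, with unadjusted 95% intervals from edgeR. Red marks the 3 members with an unadjusted p under 0.05 (none passed after adjustment), and dotted lines mark 1.5-fold, which no interval reaches.

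The cyclins and CDK1 come first. CDK1 (ENSG00000170312.17, hg38 chromosome 10, 60778331 to 60794852), the kinase that starts mitosis, was at 153, 142 and 162 CPM in 100Q, against 152, 158 and 183 CPM in 0Q. The groups overlapped, with the highest value in 0Q replicate 3, and the log2 fold change was -0.10 ± 0.09 (SE). CCNB1 (cyclin B1; chromosome 5, 69167135 to 69178245) was at 187, 170.4 and 174 CPM in 100Q, against 211, 178 and 196 CPM in 0Q. Its groups overlapped through 100Q replicate 1 and 0Q replicate 2, at -0.14 ± 0.09. CCNA2, cyclin A2, which acts from S phase into mitosis, had -0.14 ± 0.09 as well. CCNB2, the other mitotic B-type cyclin, had 0.03 ± 0.10, so the pair of B-type cyclins did not share a sign. CCNF, the F-box protein cyclin F, had 0.01 ± 0.10. CKS1B and CKS2, small subunits that bind cyclin-dependent kinases, had -0.04 ± 0.08 and 0.10 ± 0.09. The phosphatases that activate CDK1 had 0.11 ± 0.10 for CDC25B and -0.04 ± 0.16 for CDC25C. Of these 9 genes 5 were below 0, with a median of -0.036, and in none did the groups lie apart. Without 100Q replicate 1 that median was 0.0079.

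Among the mitotic kinases, PLK1 (chromosome 16, 23677656 to 23690367), the Polo-like kinase of mitotic entry and spindle assembly, was at 153, 161 and 166 CPM in 100Q, against 187, 184 and 168 CPM in 0Q. All 3 libraries of 100Q lay below those of 0Q, with 100Q replicate 3 and 0Q replicate 3 close together. The log2 fold change was -0.17 ± 0.08 (unadjusted p = 0.0576; adjusted p = 0.987, edgeR quasi-likelihood, Benjamini-Hochberg). AURKA (chromosome 20, 56369389 to 56392337), the Aurora kinase of centrosomes and spindle poles, was at 96.3, 83.8 and 88.7 CPM in 100Q, against 88.0, 104 and 86.5 CPM in 0Q, and the groups overlapped at -0.05 ± 0.10. AURKB, the catalytic subunit of the chromosomal passenger complex, had 0.06 ± 0.09. Its partners INCENP (the scaffold), BIRC5 (survivin) and CDCA8 (borealin) had -0.02 ± 0.09, 0.03 ± 0.08 and 0.12 ± 0.11. Of these 6 genes 3 were below 0, and the median was 0.0063, with the opposite sign without 100Q replicate 1 (-0.010), with the GC and length correction (-0.012) and with no filter on low counts (-0.0024).

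The spindle checkpoint holds anaphase until every chromosome is attached. Its kinases TTK (MPS1) and BUB1 had -0.15 ± 0.13 and -0.08 ± 0.10. MAD2L1 and BUB1B, which bind and inhibit the activator CDC20, had -0.06 ± 0.09 and -0.04 ± 0.11. BUB3, which binds both BUB1 and BUB1B, had 0.08 ± 0.08. Thus 4 of 5 were below 0, with a median of -0.061, which was 0.0024 without 0Q replicate 2 and -0.13 without 0Q replicate 1. With the GC and length correction this median was -0.022. Levels of 100Q and 0Q overlapped in all 5.

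Among genes of the APC/C and anaphase, UBE2C (chromosome 20, 45812576 to 45816957), the enzyme that starts ubiquitin chains on APC/C substrates, was at 95.9, 103 and 99.5 CPM in 100Q, against 89.3, 85.0 and 79.7 CPM in 0Q. Every value of 100Q exceeded every value of 0Q. The log2 fold change, 0.23 ± 0.09, was the highest of the 50 (unadjusted p = 0.0223; adjusted p = 0.987, edgeR quasi-likelihood, Benjamini-Hochberg). CDC20 (chromosome 1, 43358981 to 43363203), the mitotic APC/C activator, was at 116.6, 129.1 and 116.5 CPM in 100Q, against 115.6, 116.0 and 99.6 CPM in 0Q. The groups did not overlap, by a margin much smaller than the spread within them, and the log2 fold change was 0.13 ± 0.09. PTTG1 (securin), whose destruction frees separase, had 0.19 ± 0.11. UBE2S, which extends the ubiquitin chains, had -0.00045 ± 0.088, its sign depending on the scaling (0.00047 with RLE normalization). In this group 1 of 4 was below 0 and the median was 0.16, or 0.099 without 0Q replicate 3.

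The 7 kinesins among the members, motor proteins of the spindle and midbody, all had values below 0. KIF2C, which depolymerizes microtubules at centromeres, had -0.17 ± 0.10, and CENPE, the kinetochore motor that aligns chromosomes, had -0.14 ± 0.12. KIF11 (Eg5), which pushes spindle poles apart, had -0.08 ± 0.08. The cytokinesis motors KIF20A, KIF23 and KIF20B had -0.07 ± 0.11, -0.05 ± 0.09 and -0.03 ± 0.12, and the chromokinesin KIF4A had -0.02 ± 0.11. The median was -0.066 (-0.031 without 100Q replicate 2 and -0.10 without 100Q replicate 1), no kinesin had an unadjusted p under 0.05, and in none did the groups lie apart. With the correction for GC content and length, KIF20B had 0.017, and leaving out single libraries turned the sign of KIF20A, KIF20B, KIF23 and KIF4A.

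At centromeres and kinetochores 4 of 5 genes were below 0, with a median of -0.073. Leaving out 100Q replicate 1 gave a median of 0.0063, leaving out 100Q replicate 3 gave -0.031, and leaving out 0Q replicate 3 gave -0.032. Correction for GC content and length gave -0.020. The Ndc80 complex binds microtubules, and its members did not share a sign: NDC80 had -0.08 ± 0.14 and NUF2 -0.07 ± 0.11, whereas SPC25 had 0.14 ± 0.15. CENPF, a large protein of the outer kinetochore, had -0.08 ± 0.07. CENPA, the histone variant that marks centromeres, had -0.01 ± 0.16, with the opposite sign (0.011) when libraries were scaled by size only.

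Of the spindle proteins, NUSAP1 (chromosome 15, 41320794 to 41381050), which binds and bundles spindle microtubules near chromosomes, was at 124, 111 and 125 CPM in 100Q, against 144, 147 and 141 CPM in 0Q. All 3 libraries of 100Q lay below those of 0Q, with a gap larger than the spread within 100Q. Its log2 fold change of -0.26 ± 0.08 was the lowest of the 50 (unadjusted p = 0.00729; adjusted p = 0.987, edgeR quasi-likelihood, Benjamini-Hochberg). NUSAP1 overlaps OIP5 on the other strand and OIP5-AS1 on its own, and OIP5 was at 20.1, 15.8 and 16.2 CPM in 100Q, against 22.0, 25.4 and 22.1 CPM in 0Q. No source used here gives the strand setting of the counting, so reads of these genes cannot be told apart where they overlap. The same holds, among others, for PLK1 with ERN2, UBE2S with RPL28, CCNA2 with EXOSC9, FOXM1 with ITFG2 and RHNO1, and KIF20A with CDC23 and BRD8. BUB1B overlaps PAK6 and CENPA overlaps SLC35F6 on the same strand, where strand would not separate the reads. These are overlaps of whole gene spans, and shared exons were not checked. HMMR, which helps to organise spindle poles, had -0.19 ± 0.10, with its groups apart by much less than the spread within them. DLGAP5 (HURP), which stabilises kinetochore fibres, had -0.16 ± 0.11. TPX2, the activator of AURKA on spindles, had -0.09 ± 0.08, and PRC1, which bundles microtubules at the midzone, had -0.07 ± 0.07. The median of the 5 was -0.16, or -0.062 without 0Q replicate 3. Correction for GC content and length gave a median of -0.099. The cytokinesis genes ANLN (anillin) and ECT2, the exchange factor that activates RhoA at the cleavage furrow, had -0.11 ± 0.09 and -0.02 ± 0.09.

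Among genes of chromosome structure, TOP2A (chromosome 17, 40388525 to 40417896), the topoisomerase that untangles sister chromatids, was at 421, 393 and 442.6 CPM in 100Q, against 443.1, 469.7 and 498 CPM in 0Q. The groups did not overlap, but 100Q replicate 3 and 0Q replicate 1 nearly touched. The log2 fold change was -0.17 ± 0.08 (unadjusted p = 0.0472; adjusted p = 0.987, edgeR quasi-likelihood, Benjamini-Hochberg). MKI67, the Ki-67 protein that coats mitotic chromosomes, had -0.10 ± 0.08. The condensin subunits SMC4, SMC2 and NCAPH had -0.11 ± 0.08, -0.06 ± 0.10 and -0.03 ± 0.09, and NCAPD2 had 0.03 ± 0.08. The median of these 6 genes was -0.079, or -0.041 without 100Q replicate 2 and -0.13 without 100Q replicate 1. FOXM1 (chromosome 12, 2857680 to 2877174), the transcription factor that drives many of the other members in G2, was at 162, 191 and 182 CPM in 100Q, against 191, 165 and 174 CPM in 0Q, with overlapping groups and a log2 fold change of 0.02 ± 0.09.

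**Figure D3:**
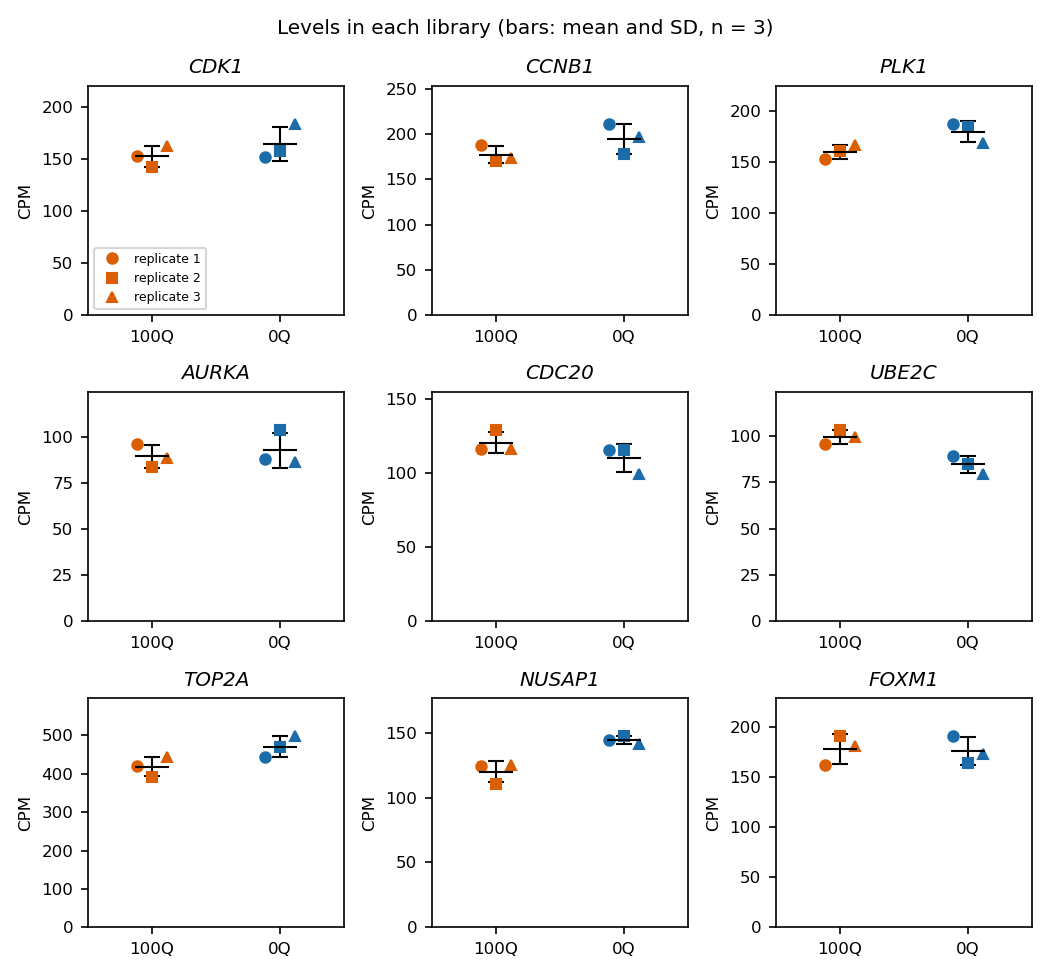
Level in CPM of 9 members in each library, with markers for replicates 1 to 3 and bars for the mean and SD of 3 libraries per group. UBE2C lies above and NUSAP1 below the values of 0Q in all 3 libraries of 100Q, whereas CDK1, CCNB1, AURKA and FOXM1 overlap.

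Counting members whose groups did not overlap gave 6 of 50, beside 10.6% of all genes tested: PLK1, NUSAP1, HMMR and TOP2A with 100Q below, and CDC20 and UBE2C with 100Q above. The background was 5.2% for 100Q below and 5.39% for 100Q above. A common shift of the members between groups was not tested. Relative to each gene's mean over the 6 libraries, the median log2 deviation of the members was 0.0029, -0.046 and -0.00076 in the 100Q libraries, by replicate, and -0.0043, 0.0096 and 0.033 in the 0Q libraries. Over all genes tested it was 0.0074, 0.0046 and 0.014 in 100Q, and 0.011, 0.011 and 0.0089 in 0Q. The lowest value of the members was that of 100Q replicate 2 and their highest that of 0Q replicate 3, and their other 4 medians lay close to 0, in both groups. Without 100Q replicate 2, 32 members were below 0, the median was -0.039 and NUSAP1 was the 1 member left with an unadjusted p under 0.05. NUSAP1 kept an unadjusted p under 0.05 whichever library was left out. UBE2C lost it without 100Q replicate 2, 100Q replicate 3, 0Q replicate 2 or 0Q replicate 3, and TOP2A without 100Q replicate 1, 100Q replicate 2, 0Q replicate 2 or 0Q replicate 3.

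**Figure D4:**
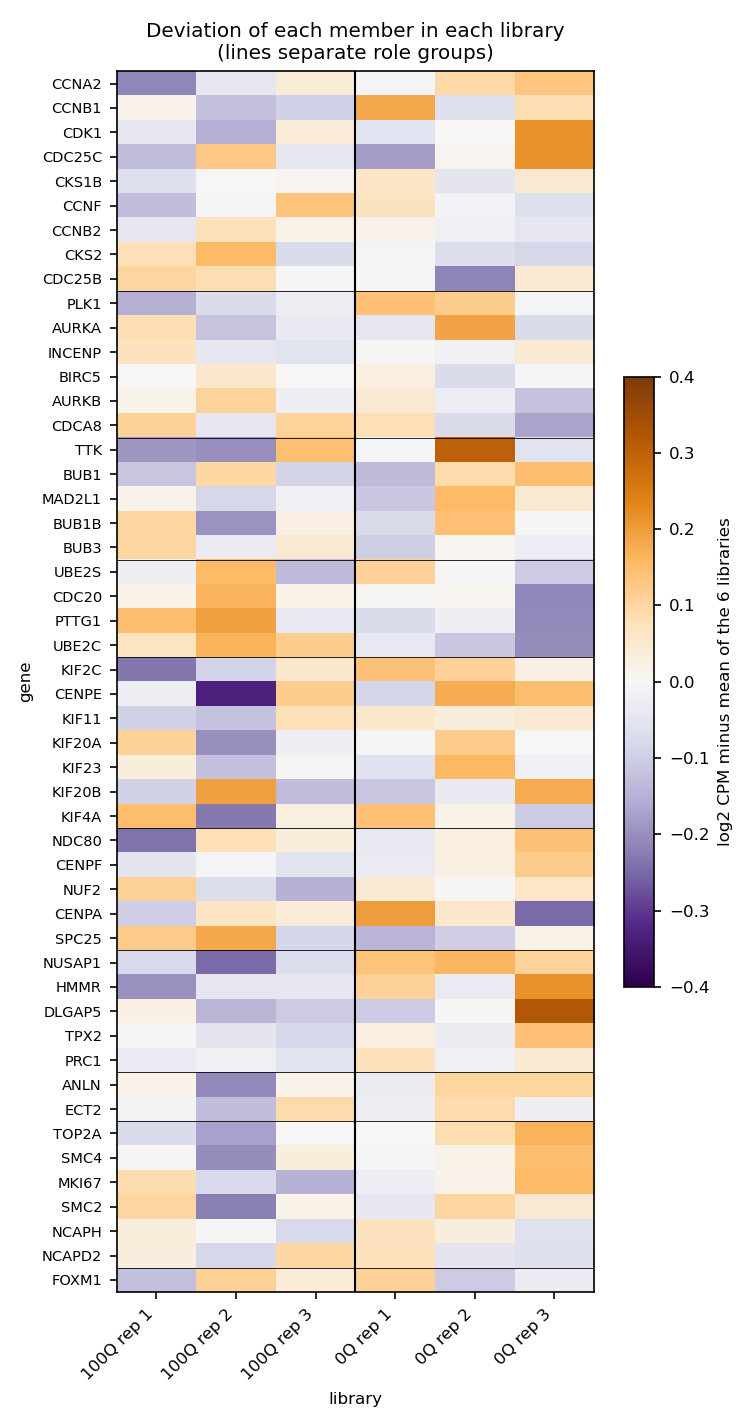
Log2 CPM of each member in each library minus its mean over the 6 libraries, with lines between role groups. The medians are lowest in 100Q replicate 2 (-0.046) and highest in 0Q replicate 3 (0.033), and in 0Q replicate 3 the median is -0.20 for APC/C and anaphase genes and 0.14 for spindle proteins.

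The values differed with the length and base composition of the transcripts, and the part of these in the fold changes was not tested beyond the correction given here. Of 11 members with a canonical transcript under 2 kb, 4 were below 0 (CDK1, CKS1B, CENPA and NUF2), with a median of 0.063. Among the others, UBE2C, PTTG1 and CDC20 are also APC/C and anaphase genes, so length class and role overlap. Of 22 members from 2 kb to under 4 kb, 18 were below 0 (median -0.074), and of 17 members of 4 kb and over, 14 were (median -0.060). Over all genes tested, 51.5%, 51.3% and 49.3% of these length classes were below 0. When trends with GC content and length were removed per library, 2 of 11, 19 of 22 and 13 of 17 members were below 0. The same fit gave 2079 of 4170, 2681 of 5177 and 2806 of 5492 tested genes below 0. The correction moved the median of the 50 members to -0.030, with 34 below 0, and 5 members then had an unadjusted p under 0.05: NUSAP1 and PLK1 with lower, and UBE2C, PTTG1 and CKS2 with higher levels in 100Q. No member passed after adjustment in that fit.

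Codons read by the queuosine tRNAs were examined because the base at stake acts there. In the longest coding sequence of each gene, codons for tyrosine, histidine, asparagine and aspartate made up a median of 13.9% in the members, beside 13.7% in 12759 tested genes with a coding sequence. The share of these codons that end in C was lower: its median was 39.7% in the members, beside 55.6% in the tested genes, and 38 of 50 members lay below that of the tested genes. It ran from 21.6% in SPC25, 22.7% in HMMR and 22.9% in DLGAP5 to 74.2% in CCNF, 77.4% in CDCA8 and 80% in UBE2S. By role the median was 33.3% for centromere and kinetochore genes, 35.4% for kinesins and 36.1% for spindle proteins, and 57.2% for APC/C and anaphase genes and 65.8% for mitotic kinases and the passenger complex.

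Of the 25 members with the lowest C-ending share, 22 were below 0, with a median log2 fold change of -0.079, whereas 14 of the other 25 were, with a median of -0.0096. The same split of all tested genes gave 61.8% below 0 (median -0.039) at the lower share and 48.2% (median 0.0075) at the higher share. The 25 members with the lower share also had the lower GC content, a median of 39.7% beside 50%. With the GC and length correction the medians of these 2 sets of members were -0.041 and -0.0099, and those of all tested genes were -0.0093 and -0.0083. Codon share and GC content move together in these genes and cannot be told apart in this design.

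**Figure D5:**
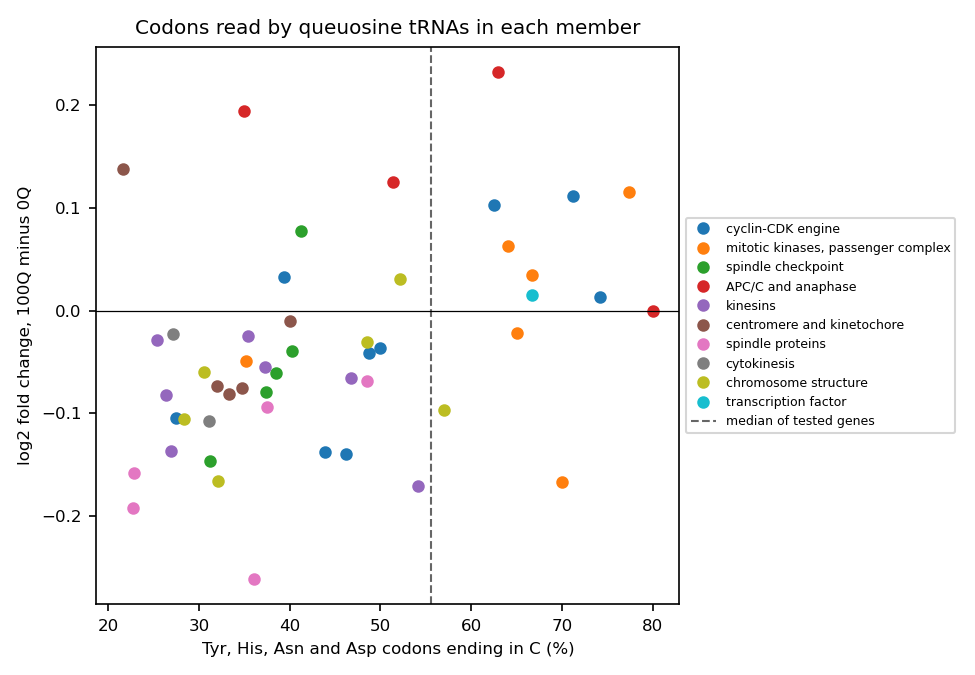
Share of tyrosine, histidine, asparagine and aspartate codons that end in C, against the log2 fold change (100Q minus 0Q), for the 50 members coloured by role. The dashed line is the median share of tested genes (55.6%), and 38 members lie to its left.

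Levels were compared between members only per transcript length, in CPM per kb. With the canonical transcript, CKS2 (174 ± 13.9 in 100Q and 162 ± 4.5 in 0Q; SD, n = 3 per group), CKS1B (148 ± 3.9 in 100Q and 151 ± 6.2 in 0Q) and UBE2C (128 ± 4.6 in 100Q and 109 ± 6.1 in 0Q) were highest, and CENPE was lowest (9.7 ± 1.5 in 100Q and 10.8 ± 1.0 in 0Q). The 3 lowest, CENPE, CDC25C and KIF20B, did not differ beyond their spread. With the median length of all annotated transcripts, which is set by short partial ones, TOP2A was highest, at 723 ± 43.1 in 100Q and 812 ± 47.4 in 0Q. The order of levels therefore depends on the length used.

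Other genes of G2 and mitosis, listed from their known roles, gave the background within the same pathway. Of 113 such genes 111 were tested, 0 passed and 1 had an unadjusted p under 0.05, and 66 were below 0, with a median of -0.027 (edgeR quasi-likelihood, Benjamini-Hochberg). That gene was OIP5 (Mis18-beta), which helps to load CENPA, at -0.42 ± 0.17. OIP5 overlaps the member NUSAP1 on the other strand, so reads of these genes cannot be told apart where they overlap. Further spindle and centrosome genes had 10 of 13 below 0 with a median of -0.16. Further kinesins had 4 of 7 below 0 with a median of -0.0067, so the common sign of the member kinesins did not extend to them. Further condensin and cohesin genes had 9 of 11 below 0 with a median of -0.037, and APC/C subunits, separase and their partners 6 of 13 with a median of 0.0069. Further centromere and kinetochore genes had 9 of 24 below 0 with a median of 0.045. CCNA1 and PTTG2 had too few counts to test, with at most 6 in a library.

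Among 38 genes of G1/S and DNA replication, the phase before, 24 were below 0, with a median of -0.030, 0 passed, and 1 had an unadjusted p under 0.05 (edgeR quasi-likelihood, Benjamini-Hochberg). That gene was PCNA, the sliding clamp of DNA polymerases, at 267, 266 and 268 CPM in 100Q, against 292, 302 and 308 CPM in 0Q, a log2 fold change of -0.17 ± 0.07. Levels of 100Q lay below those of 0Q in all 3 libraries.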

How the data were processed

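The authors deposited estimated counts (expected counts) per Ensembl gene for 6 libraries, without normalization. FastQC, STAR and RSEM are listed in the submitters' processing notes, with hg38. No version, annotation or strand setting is given in the sources read. RSEM divides reads that fit several genes, so values of paralogs and overlapping genes are uncertain.

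Estimated counts were rounded and fitted in edgeR 4.0.16 (R 4.3.3; quasi-likelihood) with TMM, full library totals, the default filter (minimum count 10) and Benjamini-Hochberg adjustment over all genes. SE is the absolute log2 fold change divided by the root of F. Names, coordinates, lengths and coding sequences came from GENCODE 44, which matched 62541 of 63086 identifiers, and promoters from RefSeq (GRCh38.p14). Motif counts used the first start listed for each gene. The members and gene lists were chosen with earlier results of these data known. Values by library were given for CDK1, CCNB1, PLK1, AURKA, CDC20, TOP2A, FOXM1, members with an unadjusted p under 0.05 and those with the lowest and highest fold change. OIP5 and PCNA were named as genes with an unadjusted p under 0.05.

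The planned search for protein motifs was not run. Simulated data (14580 genes, 50 changed at each fold) gave back 8% of genes changed 1.2-fold, 62% at 1.5-fold and 82% at 2-fold, at an adjusted p under 0.05. The changed genes were drawn from many levels, also below those of the members. All folds, up to 3-fold, were in the same simulated data, which makes an adjusted p under 0.05 easier to reach. In the measured data 2 genes passed, so these rates may be too high for them. No replicate pair was as close as counting alone would give (chi-square over its degrees of freedom, 5.36 to 14.2). Alternatives were RLE, library size only, no filter, a mean count of 50, the replicate block, a GC and length correction (natural splines, values limited to percentiles 1 to 99), DESeq2 1.42.0, limma-voom (limma 3.58.1) and each library left out.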

Additional observations from a re-analysis of the deposited data

How the results depend on the processing

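The number of members called was 0 in every alternative run, and so was that of the other G2/M and the G1/S lists. The number of members below 0 was 31 to 36. At an unadjusted p under 0.05 there were 5 members with the GC and length correction, 6 with the replicate block added to it, and 1 to 4 when a library was left out. Their median log2 fold change was -0.083 to -0.032 when a library was left out (lowest without 0Q replicate 1) and -0.033 with library size only, which moved the median of all genes to 0.016. Over all genes the number called was 71 with no filter on low counts, 1 with the stricter filter, 4 with the GC and length correction, also with the replicate block, 11 with DESeq2, 1 with limma-voom and 0 to 6 when a library was left out. The replicate numbers were not taken as pairs in the main fit. Deviations of same-numbered libraries correlated at 0.0043, 0.015 and 0.25 over 10577 genes, and those of differently numbered libraries at -0.185 to 0.151. The replicate block alone called 3 genes and 0 members (median -0.047).

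Of 50 members, 31 kept their sign in every fit. With the GC and length correction, and with the replicate block added to it, signs turned for CCNF (-0.016 and -0.022), CKS1B (0.028 and 0.026), KIF20B (0.017 and 0.014), CENPA (0.016 and 0.028), ECT2 (0.023 and 0.028) and FOXM1 (-0.0040 and -0.0051). CENPA also turned with library size only (0.011), the block (0.0062) and limma-voom (0.0084). UBE2S turned with RLE (0.00047), library size only (0.017), the stricter filter (0.0048), the block (0.0011) and DESeq2 (0.00037). Leaving out a library gave ranges on both sides of 0: CCNF -0.066 to 0.074, CDC25C -0.13 to 0.066, AURKA -0.10 to 0.038, INCENP -0.062 to 0.0037, BUB1B -0.096 to 0.031, MAD2L1 -0.13 to 0.0024, UBE2S -0.080 to 0.067, KIF20A -0.14 to 0.0010, KIF20B -0.13 to 0.060, KIF23 -0.098 to 0.013, KIF4A -0.11 to 0.062, CENPA -0.13 to 0.092, NDC80 -0.13 to 0.0063, ECT2 -0.081 to 0.026, SMC2 -0.12 to 0.018, NCAPD2 -0.012 to 0.075, NCAPH -0.066 to 0.0049 and FOXM1 -0.034 to 0.076. None of these passed in any fit, and the cause was not tested. Of genes changed 1.2-fold in simulated data, 8% passed at this depth and number of libraries. Those genes had many levels and were simulated beside others changed up to 3-fold, so the rate is not that of the members.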
